A study of Mus musculus with 2 samples.

Results

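The 10 genes described here encode chaperones, folding enzymes and stress factors of the endoplasmic reticulum (ER): Canx, Calr, Hspa5, Hsp90b1, Pdia3, Pdia4, Pdia6, P4hb, Serp1 and Atf4. They were chosen by name as a functional group, out of 7292 genes with at least 1 cDNA of Tia1 iCLIP in their 3'UTR. iCLIP (individual-nucleotide crosslinking and immunoprecipitation) freezes protein on RNA with UV light and maps the place where reverse transcription stops, so that each unique cDNA counts 1 crosslinking event next to the bound nucleotide. Primary splenic B cells of C57BL/6 mice were stimulated with 10 µg/ml lipopolysaccharide (LPS) over 48 h, and only their cytoplasm was used. All of the data come from this 1 group with 2 replicates, which the study treats as separate experiments. No other genotype, time or treatment and no control precipitation was analysed here, so background binding was not measured.

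Tia1 belongs to the proteins that build stress granules, and it recognises U-rich RNA. The titles of the samples name Tia1 and the antibody field names an antibody raised against its relative Tial1, while the methods of the study speak of an anti-Tia1 antibody. Which of these holds could not be settled from the files. The labels and the methods also give different UV doses and RNase concentrations. Transcript levels were not measured in this series, so a count combines how much of an mRNA was present with how often it was crosslinked.

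Secreted and membrane proteins enter the ER through the translocon, are bound there by lectin chaperones and by ER members of the Hsp70 and Hsp90 families, and receive their disulfide bonds from protein disulfide isomerases. When unfolded proteins build up, ER sensors start the unfolded protein response, which raises the chaperones through transcription factors that include Atf4. B cells stimulated with LPS expand this machinery as they turn into cells that secrete antibody.

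The sequences below come from the leading 3'UTR cluster of each gene, which is the one with most pooled cDNAs. In Calr the strongest single 3'UTR site lay in the second cluster printed. In P4hb it lay in a cluster that is not printed, 538 nt after the stop codon (12 pooled cDNAs). The sequences are 30-nt windows, which hold only part of a gene's cDNAs (203 of 1257 in the 3'UTR of Canx), around the nucleotide with most cDNAs in the cluster. A cluster is a run of sites with gaps of at most 15 nt. Second windows are shown for Calr and Serp1, whose binding was spread over several strong clusters, together with the Serp1 window next to the stop codon and the strongest coding window of Hsp90b1. They were read 5′ to 3′ on the transcript strand from GRCm38 (RefSeq genome), and capitals mark nucleotides called as crosslink sites in both replicates.
Canx 3'UTR cluster 1 (chr11:50295233-50295262, minus strand): gugaugacauguUUCUUCUUUUUUagcugg
Calr 3'UTR cluster 1 (chr8:84842449-84842478, minus strand): ccccCCUUUUUUUUUUUAcugguGUuUgUc
Calr 3'UTR cluster 2 (chr8:84842527-84842556, minus strand): agaAcUUUUCAUUUUUUcCaggcagguUca
Hspa5 3'UTR cluster 1 (chr2:34776401-34776430, plus strand): uguggugUaggaacUUUUUucUaccauaag
Hsp90b1 3'UTR cluster 1 (chr10:86690937-86690966, minus strand): caggaagaagugGuuUUUUUaguUgaaUUu
Pdia3 3'UTR cluster 1 (chr2:121437915-121437944, plus strand): gUuggggggUUauUUUcuAaUUuUUUuUgu
Pdia4 3'UTR cluster 1 (chr6:47796233-47796262, minus strand): UUuUUUUUUuUUUUuUAacUAuuUacuUCa
Pdia6 3'UTR cluster 1 (chr12:17284286-17284315, plus strand): uUaugUaUaggguUUUUaaaaugugaUUcc
P4hb 3'UTR cluster 1 (chr11:120560911-120560940, minus strand): uuggugguguacUuuUUugUauguggaaUu
Serp1 3'UTR cluster 1 (chr3:58522296-58522325, minus strand): UaUuUUacUAuAacUUUaaaagugaaagau
Serp1 3'UTR cluster 2 (chr3:58522775-58522804, minus strand): gauugaucaUUUUCUUUUUAcUaauAguaa
Serp1 3'UTR cluster 3 (chr3:58523773-58523802, minus strand): UUcuccugugaauUUUaacUugaacUcaUU
Atf4 3'UTR cluster 1 (chr15:80257495-80257524, plus strand): cuuguguugcuguguuugcuguaauaaauu
Hsp90b1 coding sequence (chr10:86701816-86701845, minus strand): uuuuaUucugccuUcCUUguagcagauaag

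Runs of U made up the core of most windows. The longest run of U was 16 nt in the Pdia4 window, 11 nt in Calr cluster 1, 8 nt in Pdia3, 7 nt in Hsp90b1 and 6 nt in Canx, Calr cluster 2, Hspa5 and P4hb. The Serp1 windows held broken runs, with at most 4 nt of U in a row in clusters 1 and 3 and 5 nt in cluster 2. The Atf4 window holds no capital, since no site of its 3'UTR was called in replicate 2.

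The sites used here passed the authors' false discovery rate and are called low-FDR sites. There were 342732 of them in replicate 1 (639108 cDNAs) and 93512 in replicate 2 (165081 cDNAs). The authors also called sites on the sum of both replicates (pooled, 867271 cDNAs at 422150 sites), and 58002 sites were called in both replicates. In the 3'UTR, 7 of 8 B and plasma cell markers had sites in both replicates (4376 and 1076 cDNAs), against 0 of 5 T cell markers (4 and 0 cDNAs), 2 of 5 myeloid markers (29 and 6 cDNAs) and 1 of 4 erythroid markers (25 and 3 cDNAs), with Cd3d, Cd3g, Cd4, Cd8a, Csf1r, Cd14, Hbb-bs, Hba-a1 and Alas2 at 0. The part of other cells in the counts of the ER genes was not tested.

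Of the 10 genes, 9 had 3'UTR sites in both replicates, and the same 9 had at least 10 cDNAs in each. Over all 7883 genes with an annotated 3'UTR and a pooled exon site, 58.6% had 3'UTR sites in both, and 31.7% had at least 10 cDNAs in each. The exception was Atf4. The 3'UTRs of the 10 genes held 6727 pooled cDNAs at 1673 sites, of which replicate 1 gave 5107 and replicate 2 gave 1459. That was 0.993% of all pooled 3'UTR cDNAs. Their median density was 334 pooled cDNAs per kb of 3'UTR, against a median of 22.0 over all genes with a 3'UTR cDNA. By density Pdia4 stood first among them (2784 per kb), then Calr (1350), Serp1 (654), Canx (542), Hsp90b1 (458), Pdia6 (209), Pdia3 (202), Atf4 (185), P4hb (147) and Hspa5 (126). The order of neighbours with close values, such as Pdia6, Pdia3 and Atf4, was not resolved by 2 replicates: Pdia6 and Pdia3 held 153 and 155 cDNAs per kb in replicate 1 and 55.0 and 40.5 in replicate 2.

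**Figure D1:**
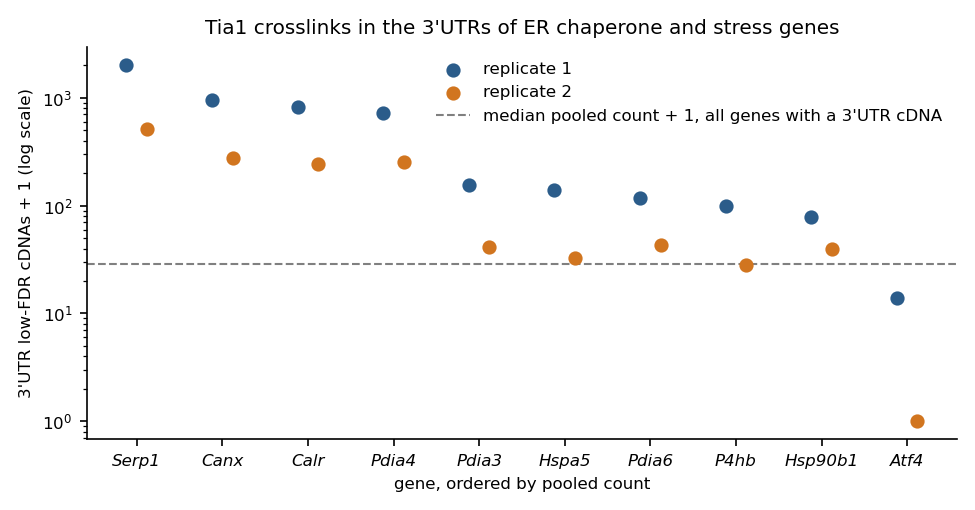
Low-FDR cDNAs plus 1 in the 3'UTR of each gene on a log axis, with 1 point per replicate, and the median pooled count plus 1 of all genes with a 3'UTR cDNA as a dashed line. Serp1 is highest in both replicates (2020 and 513 cDNAs), and Atf4 has 13 cDNAs in replicate 1 and 0 in replicate 2.

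The lectin chaperones calnexin and calreticulin hold newly made glycoproteins in the ER until they are folded, calnexin as a membrane protein and calreticulin as its soluble counterpart. The 3'UTR of Canx (chr11:50293961-50296281, minus strand, 2321 nt) held 952 cDNAs in replicate 1 against 273 in replicate 2, and the pooled list held 1257, at 470 sites in 16 clusters. Its leading cluster, 835 to 1269 nt after the stop codon, took 52.8% of the cDNAs of replicate 1 (exact 95% interval 49.6 to 56.0%) and 55.3% of those of replicate 2 (49.2 to 61.3%). A second cluster at 275 to 577 nt took 28.8% (25.9 to 31.8%) and 31.9% (26.4 to 37.8%), so both replicates split the binding alike within these intervals. All intervals here cover counting error only.

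Calr (3'UTR chr8:84841850-84842646, minus strand, 797 nt) held 823 and 241 cDNAs in replicates 1 and 2, and 1076 in the pooled list. Nearly all of them fell in 2 clusters, at 79 to 142 nt and 172 to 295 nt after the stop codon, which are those printed above. Here the replicates differed: the cluster nearer the stop codon held 23.7% of replicate 1 (20.8 to 26.8%) and 42.7% of replicate 2 (36.4 to 49.2%), and the farther one 70.5% (67.2 to 73.6%) and 54.4% (47.8 to 60.8%). A weaker cluster at 427 to 449 nt held 36 cDNAs in replicate 1 and no called site in replicate 2, which had 4 cDNAs at the nucleotides called in replicate 1. The annotation also lists a Calr pseudogene, and no source states what was done with reads of more than one match, so the Calr counts carry that uncertainty.

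The ER Hsp70 chaperone Hspa5 (BiP), which binds unfolded chains and holds the stress sensors in check, had the lowest density of the 10 genes over the full annotated 3'UTR. Its 3'UTR (chr2:34776114-34777547, plus strand, 1434 nt) held 139 and 32 cDNAs, and 181 in the pooled list. Binding was spread over 5 clusters, the first 3 of which held 90.6% of the pooled cDNAs. The leading cluster, at 287 to 310 nt, held 49 cDNAs in replicate 1 and 19 in replicate 2.

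Hsp90b1 (GRP94), the ER member of the Hsp90 family, which folds Toll-like receptors and integrins, had a short 3'UTR (chr10:86690840-86691101, minus strand, 262 nt) with 78 and 39 cDNAs, and 120 in the pooled list. A single cluster of 17 nt, 148 to 164 nt after the stop codon, held 61 of the 78 cDNAs in replicate 1 and 35 of the 39 in replicate 2. Hsp90b1 was also the chaperone with the largest share of coding cDNAs. Its coding sequence held 64 and 12 cDNAs, and 100 in the pooled list, which was 42.6% of its pooled cDNAs (36.1 to 49.1%) against 51.1% in the 3'UTR (44.5 to 57.6%). The coding share was 43.8% in replicate 1 (35.6 to 52.3%) and 22.2% in replicate 2 (12.0 to 35.6%). Of these 100, 56 lay in the cluster printed above, at 584 to 627 nt from the start codon. Replicate 1 gave 43 of them, replicate 2 gave 12, and 5 sites were called in both. Per kb the coding sequence was the sparser of these regions, with 41.5 pooled cDNAs per kb against 458 in the 3'UTR.

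Protein disulfide isomerases make and rearrange disulfide bonds, and Pdia3 (ERp57) does so on the glycoproteins held by calnexin and calreticulin. Pdia4 (ERp72) was the most densely bound gene of the 10, ranked 16 of all genes by pooled 3'UTR cDNAs per kb. Its 3'UTR (chr6:47796141-47796487, minus strand, 347 nt) held 714 and 252 cDNAs, and 966 in the pooled list. One cluster of 239 nt, from 90 to 328 nt after the stop codon, held 711 of the 714 cDNAs in replicate 1 and all 252 in replicate 2. Past the annotated end of the 3'UTR, 17 further pooled cDNAs lay 11 to 26 nt downstream (12 and 5 in the replicates), and they are not in the counts above.

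Pdia3 (3'UTR chr2:121437700-121438687, plus strand, 988 nt) held 153 and 40 cDNAs, and 200 in the pooled list. Its leading cluster of 43 nt, at 214 to 256 nt, held 98 cDNAs in replicate 1 and 34 in replicate 2. Pdia6 (P5; 3'UTR chr12:17284007-17284770, plus strand, 764 nt) held 117 and 42 cDNAs, and 160 in the pooled list. Its leading cluster at 276 to 344 nt held 100 and 39 of them. P4hb is the founding member of the family. P4hb (3'UTR chr11:120560298-120561182, minus strand, 885 nt) held 98 and 27 cDNAs, and 130 in the pooled list, in 7 clusters. The leading P4hb cluster, at 234 to 307 nt, held 30 and 16 cDNAs, which was 30.6% of replicate 1 (21.7 to 40.7%) and 59.3% of replicate 2 (38.8 to 77.6%). These intervals overlap, and that of replicate 2 rests on 27 cDNAs. The single P4hb nucleotide with most cDNAs, 538 nt after the stop codon, held 11 cDNAs in replicate 1 and was not called in replicate 2, which had 1 cDNA there.

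Serp1 (RAMP4) is a small membrane protein of the translocon that protects newly made membrane proteins under ER stress. It held the most 3'UTR cDNAs of the 10 genes and ranked 5 of all genes by count, and 120 per kb. Its 3'UTR (chr3:58519817-58523827, minus strand, 4011 nt) held 2020 and 513 cDNAs, and 2622 in the pooled list, at 613 sites in 15 clusters. The leading cluster at 1480 to 1768 nt held 39.7% of replicate 1 (37.6 to 41.9%) and 51.7% of replicate 2 (47.2 to 56.1%). The cluster at 6 to 77 nt, just after the stop codon, held 11.8% (10.4 to 13.3%) and 6.63% (4.63 to 9.14%). By each replicate's own calls, the weight of Serp1 binding thus lay farther from the stop codon in replicate 2. The median distance of a called 3'UTR cDNA from the stop codon was 1054 nt in replicate 1 and 1503 nt in replicate 2. At nucleotides called in either replicate, replicate 2 held 588 cDNAs, with 273 in the leading cluster. These include 8, 10 and 7 cDNAs in the clusters at 120 to 164, 854 to 882 and 279 to 292 nt, where it called no site. How much of the gap between the medians follows from the calling was not tested. In this gene the authors' filter removed more than in the others: 84.3% of the mapped pooled cDNAs between its first and last 3'UTR site were low-FDR (82.9 to 85.5%), against 92.2% in P4hb and 96.7% or more in the other 8.

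Atf4 encodes a transcription factor of the stress response whose translation is governed by upstream open reading frames. It had the fewest cDNAs of the 10 genes, though not the lowest density in the 3'UTR, and differed from the chaperones in where its cDNAs lay. Its 3'UTR (chr15:80257461-80257541, plus strand, 81 nt) held 13 cDNAs in replicate 1 but 0 in replicate 2, and the pooled list held 15. At the nucleotides called in replicate 1, replicate 2 had 1 cDNA that its own calling did not keep. The coding sequence of Atf4 held 25 and 7 cDNAs and 50 in the pooled list, which was 64.9% of its pooled cDNAs (53.2 to 75.5%), and its 5'UTR held 10 and 0, and 12 in the pooled list. Because the 3'UTR is so short, it was still the densest region, with 185 pooled cDNAs per kb against 47.6 in the coding sequence and 20.2 in the 5'UTR.

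**Figure D2:**
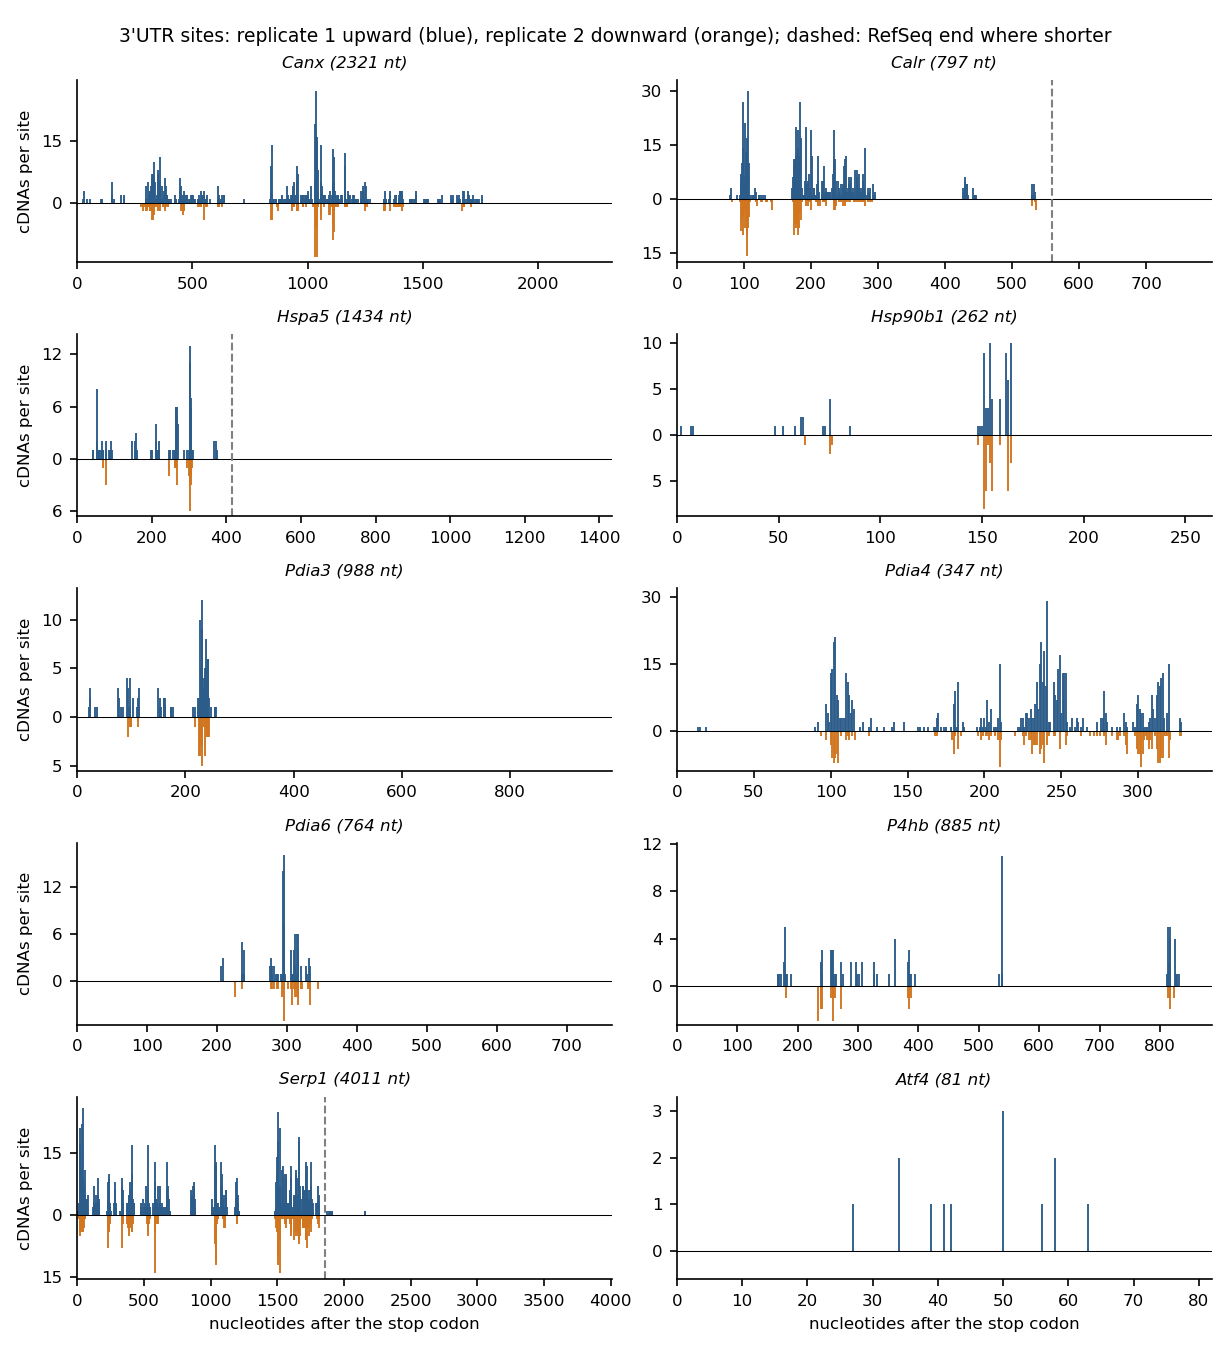
Low-FDR cDNAs per site along the 3'UTR of each gene, in nucleotides after the stop codon, with replicate 1 drawn upward and replicate 2 downward, and dashed lines at the RefSeq mRNA end where it is the shorter. The tallest peak of replicate 1 in P4hb (11 cDNAs at 538 nt) was not called in replicate 2, and in Hspa5 and Pdia3 no site lies beyond 376 and 256 nt of 3'UTRs of 1434 and 988 nt.

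In several of these genes the sites stopped well before the annotated end of the 3'UTR. The last pooled site of Hspa5 was 376 nt after the stop codon (26.2% of the 3'UTR), that of Pdia3 256 nt (25.9%) and that of Pdia6 344 nt (45.0%). Among 2386 genes with a 3'UTR of at least 300 nt and at least 50 pooled cDNAs there, the median last site was at 93.9% of the length, and 13.2% of genes had their last site before the middle. In 3 of the 8 ER genes that met those limits the last site was before the middle. These stretches were nearly empty before filtering too, with between 0 and 7 cDNAs beyond the last site of each of the 10 genes in the unfiltered pooled map. For 3 genes the RefSeq mRNA ends well before the longest GENCODE 3'UTR (in Hsp90b1 the ends differ by 1 nt): at 559 nt in Calr (last site at 536 nt), 416 nt in Hspa5 (376 nt) and 1859 nt in Serp1, where 9 of 2622 pooled cDNAs lay farther out, up to 2156 nt. Densities per kb depend on this choice of end. Counted only up to the last site, the density was 2945 pooled cDNAs per kb in Pdia4, 2007 in Calr, 1216 in Serp1, 781 in Pdia3, 732 in Hsp90b1, 715 in Canx, 481 in Hspa5, 465 in Pdia6, 238 in Atf4 and 156 in P4hb. Pdia4, Calr and Serp1 stayed first in that order, while Pdia3 passed Canx and Hsp90b1, and Hspa5 was no longer the lowest.

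Across the 10 genes, 90.5% of the 7437 pooled cDNAs lay in the 3'UTR (89.8 to 91.1%), with 90.7% in replicate 1 (89.9 to 91.4%) and 95.5% in replicate 2 (94.4 to 96.5%). Over all genes those shares were 82.5%, 83.2% and 87.3%. The sum of the 10 genes is weighted towards those with many cDNAs, such as Serp1 (2622 pooled 3'UTR cDNAs). Gene by gene, the pooled share was below 82.5% in Atf4 (19.5%), Hsp90b1 (51.1%), Pdia3 (77.2%) and Hspa5 (81.5%). It was above 82.5% in the rest, from 90.9% in Pdia6 to 100% in P4hb. Coding sequence held 582 pooled cDNAs of the 10 genes, 447 of replicate 1 and 48 of replicate 2 by their own calls, and introns held 89. The intron share was 1.20% (0.962 to 1.47%), against 4.43% over all genes. P4hb had no low-FDR cDNA outside its 3'UTR. In Calr, Hspa5, Pdia3, Pdia4 and Pdia6 no coding site was called in replicate 2, where 68, 33, 50, 63 and 14 coding cDNAs were found in replicate 1. Replicate 2 did hold 2, 1, 5, 2 and 2 cDNAs at the coding nucleotides called in replicate 1 or 2, so in these genes it was not empty there. The coding cDNAs of Serp1 (69 and 19 in the replicates) lay mostly at the end of the reading frame, with 88.6% of the pooled ones in its final 25%. That share was 74.5% in Pdia3, 65.1% in Calr, 64.8% in Pdia4, 33.3% in Hspa5, 20% in Hsp90b1, 3.61% in Canx and 0 in Pdia6 and Atf4.

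**Figure D3:**
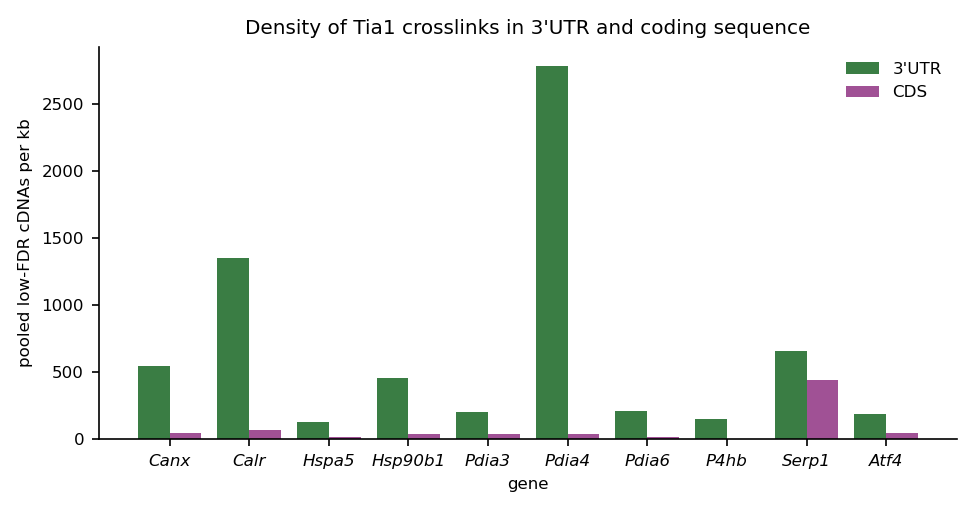
Pooled low-FDR cDNAs per kb in the 3'UTR and in the coding sequence (CDS) of each gene. The 3'UTR bar is the taller in all 10 genes, and Serp1 has the tallest CDS bar (438 per kb, beside 654 in its 3'UTR).

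The share of a gene's 3'UTR cDNAs that came from replicate 2 measures how evenly both experiments recovered it, since over all genes replicate 2 gave 21.03%. The 9 genes with at least 50 cDNAs in both replicates together ranged from 18.7% in Hspa5 (13.2 to 25.4%) to 33.3% in Hsp90b1 (24.9 to 42.6%). The interval lay above 21.03% in Hsp90b1 and in Pdia4 (26.1%, 23.3 to 29.0%) and below it in none. That is 2 of 9 genes, where 13.7% of the 2526 genes tested lay above and 18.7% below. These calls depended on the sites admitted. With sites of at least 2 pooled cDNAs the interval of Pdia4 included the overall share, and with at least 5 that of Hsp90b1 did too. Serp1 lay below the overall share in both settings and Calr in the stricter one. At sites called in both replicates Pdia4, Calr and Serp1 lay below (30.4%, 27.4% and 31.6%, against 34.9% over all genes), and the interval of Hsp90b1 included the overall share. Of the 3'UTR sites called in replicate 2, 64.6% over all genes were also called in replicate 1. For the 9 genes this was between 66.7% (P4hb, 41.0 to 86.7%) and 93.8% (Hspa5, 69.8 to 99.8%), with 76.2% in Canx, 84.0% in Calr, 87.1% in Pdia4 and 89.5% in Serp1. These 9 genes also held more pooled cDNAs per 3'UTR site, from 2.28 in P4hb to 6.33 in Calr, against a median of 1.45 over all genes. How much of the overlap follows from that was not tested.

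**Figure D4:**
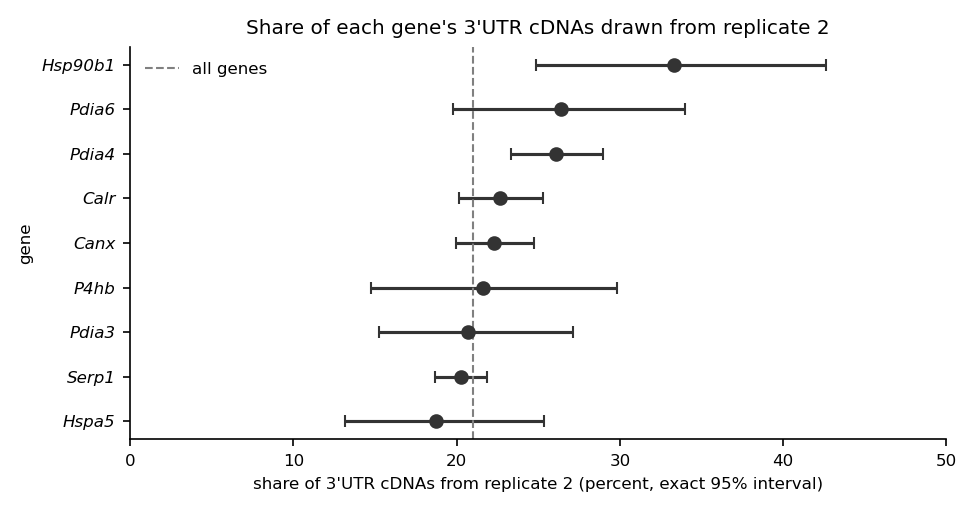
Share of each gene's 3'UTR cDNAs that came from replicate 2, in percent, with exact 95% intervals (horizontal bars) and the share over all genes (21.03%, dashed line). The intervals of Hsp90b1 and Pdia4 lie to the right of the dashed line and the other 7 include it.

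The crosslinked nucleotides of these genes were mostly U. In replicate 1, U carried between 76.2% (Serp1) and 90.6% (Pdia6) of the 3'UTR cDNAs, and in replicate 2 between 85.9% (Calr) and 97.5% (Pdia3). Counted by site over the whole data set, U was the crosslinked base at 73.7% of 3'UTR sites in replicate 1 and 84.7% in replicate 2. At all pooled 3'UTR sites of the data set it was 73.9%. Serp1 (54.6%), Calr (54.7%), Hspa5 (63.9%), Canx (65.7%), Pdia4 (67.1%), Pdia3 (67.2%) and P4hb (73.7%) lay below that. Pdia6 (75.6%), Hsp90b1 (82.1%) and Atf4 (90%) lay above it. The share at C in replicates 1 and 2 was 17.1% and 9.13% in Calr, and in Hspa5 it was 9.38% in replicate 2. In the windows of 31 nt centred on the pooled sites, U made up 54.5% of Pdia4, 49.0% of Atf4, 46.7% of Hsp90b1, 45.2% of Pdia6, 44.2% of Pdia3, 43.2% of Canx, 43.0% of Calr, 42.6% of P4hb, 40.6% of Serp1 and 34.3% of Hspa5. The median over the 10 genes (43.7%) was close to that over all genes (44.8%). Each 3'UTR as a whole was poorer in U, from 28.9% in P4hb to 43.2% in Atf4. The windows exceeded the whole 3'UTR most in Pdia6 (45.2% against 29.6%) and least in Hspa5 (34.3% against 33.96%).

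**Figure D5:**
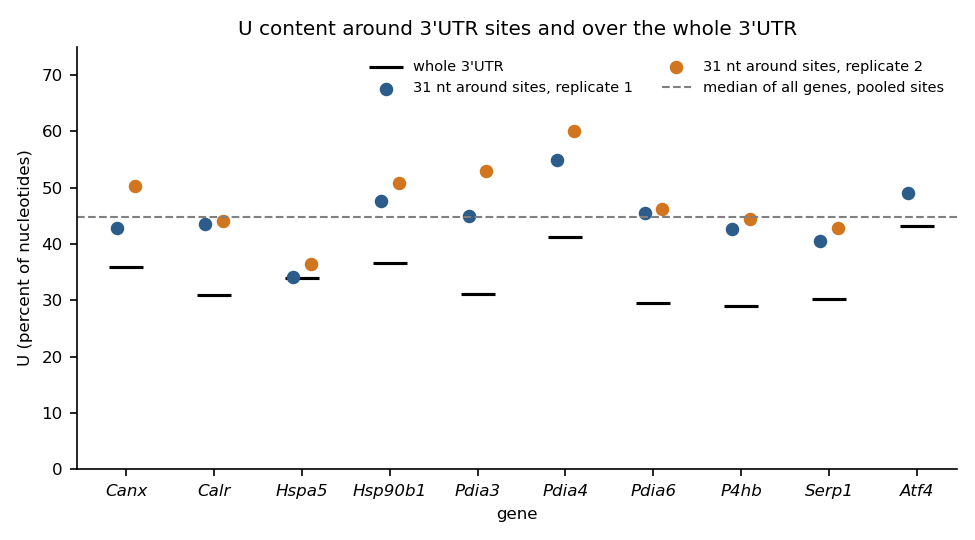
Percent of U in the 31 nt around 3'UTR sites of replicate 1 and replicate 2 (points), over the whole 3'UTR (black bars), and the median of all genes (dashed line at 44.8%). Pdia4 is highest in both replicates (55.0% and 60.0%), Hspa5 lowest (34.2% and 36.5%), and Atf4 has no site in replicate 2.

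The genes differed in 2 short motifs searched on the transcript strand of the 31-nt windows. UUUUU was in 38.9% of the windows around all pooled 3'UTR sites of the data set. It was in 73.5% of those of Pdia4, 66.7% of Pdia6, 42.9% of Hsp90b1 and 40.6% of Calr, but in 19.7% of Hspa5, 14.04% of P4hb, 13.2% of Serp1 and none of Atf4. In every gene with 3'UTR sites in both replicates this share was higher in replicate 2 than in replicate 1. Over the whole data set U was the crosslinked base at 73.7% of 3'UTR sites in replicate 1 and 84.7% in replicate 2. The UUUUU share over all genes was not split by replicate. Whether the rise is particular to these genes was therefore not tested. Hspa5 had UUUUU in 19.6% of the windows of replicate 1 and 50% of the 16 windows of replicate 2, and P4hb had it in 16.7% and 27.8%. In the same order Canx had 30.3% and 53.7%, Pdia3 36.2% and 66.7%, and Hsp90b1 50% and 75%. AUUUA, which cannot share a nucleotide with UUUUU, was in 11.5% of all windows. Pdia4 had it in 26.5%, Hspa5 in 14.8%, Canx in 11.1%, Serp1 in 10.8% and P4hb in 7.02% of windows, and the other 5 genes had none. In Hspa5 the replicates gave 16.1% and 31.2%, and in P4hb 6.25% and 0. Windows of neighbouring sites overlap, so these shares describe a few stretches of each 3'UTR and not independent sites.

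Other genes of the same pathway were bound as well. Of a list of 61 genes of ER folding and the unfolded protein response, 55 had an annotated 3'UTR and a pooled exon site, and 40 of those (72.7%) had 3'UTR sites in both replicates, beside 58.6% over all genes. Among the sensors and effectors this held for 7 of 8. Xbp1, the transcription factor spliced by the sensor Ire1, held 213 and 73 cDNAs in the replicates. Eif2ak3, the sensor kinase PERK upstream of Atf4, held 115 and 38, and Atf6, the sensor cleaved in the Golgi, 177 and 44. Ern1, which encodes Ire1, held only 15 and 3. Ppp1r15b, a subunit of the phosphatase that reverses the action of PERK, held 259 and 78, whereas its stress-induced relative Ppp1r15a held 3 and 0, and Ddit3 (CHOP) and Trib3, targets of Atf4, held none.

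Among the co-chaperones of Hspa5, 8 of 9 had 3'UTR sites in both replicates, with Manf (336 and 128 cDNAs) and Sdf2l1 (171 and 43) the highest. Among translocon genes it was 8 of 10, with Tram1 (698 and 157), Ssr3 (609 and 143) and Ssr1 (576 and 126) the highest by count. Sec61b, a translocon subunit, had no 3'UTR cDNA and 27 pooled coding cDNAs. The glycan cycle, which feeds calnexin and calreticulin, had 5 of 7 genes with sites in both, led by Edem1 (387 and 67). For disulfide and proline folding it was 6 of 11 and for ER-associated degradation 6 of 10, shares near the 58.6% over all genes, and in these groups Erp44 (248 and 63) and Selenos (205 and 114) held the most. The difference between these groups was not tested. By density, the median over the 40 genes was 105 pooled cDNAs per kb, against 334 over the 10 genes described above. The 40 genes ranged from 4.29 (Uggt1) to 1074 per kb (Ssr4). Sdf2l1 (585), Selenos (578) and Tram1 (551) stood above all of the 10 genes except Pdia4, Calr and Serp1.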

How the data were processed

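The authors processed the reads with iCount and Bowtie (version: not given in the sources used here). Barcodes sorted the reads into samples, random barcode bases collapsed PCR duplicates, and mapping was to mm9. Per the file headers, low-FDR sites had a false discovery rate under 0.05 from 100 permutations within 15 nt. Each deposited value is the count of unique cDNAs at 1 nucleotide, signed by strand and not scaled to depth. Multiple-match handling is not given.

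The authors' own mm10 (GRCm38) positions of the pooled sites were used for both replicates through the paired mm9 list (98.3% and 98.7% of sites), with no conversion here. Sites were assigned by strand to GENCODE M21 features in the order CDS, 3'UTR, 5'UTR, other exon, intron, with bedtools 2.31.1 and Python 3.11.15. The feature lengths joined all annotated isoforms. A 3'UTR nucleotide of several genes was given to none (0.230% of 3'UTR cDNAs). Since the pooled list was called on the sum, its counts can exceed the replicates' sum, and counts at nucleotides that 1 replicate did not call were taken as pooled minus the other. Exact binomial (Clopper-Pearson) intervals used scipy 1.17.1, and these steps were tested on simulated data. With 1 group there was no test between groups. Every one of the 10 genes was named. The genes and lists were chosen with earlier results of these data known.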

Additional observations from a re-analysis of the deposited data

How the results depend on the processing

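The number of genes with 3'UTR sites in both replicates stayed at 9 with at least 10 cDNAs required in each. It was also 9 with 3'UTR placed before CDS, which left their 6727 3'UTR cDNAs unchanged. Settings that drop sites were not run for this number. The density and U share followed the sites admitted. With sites of at least 5 cDNAs the 10 genes held 4419 3'UTR cDNAs, 97.3% of their cDNAs lay in the 3'UTR, 25.2% of the 3'UTR cDNAs came from replicate 2, the median density was 191 per kb and the median U share 46.3%. With sites called in both replicates those values were 4341 cDNAs, 97.2%, 30.8% and, for U, 47.0%. With at least 2 cDNAs per site the U share was 45.2%, with windows of 11 and 61 nt 48.7% and 40.0%, and with each cDNA counted 45.6%. A gap of 5 nt in place of 15 nt gave 159 clusters in place of 60. Leaving out 1 replicate gave 1459 to 5107 cDNAs, 90.7 to 95.5% in the 3'UTR, 44.3 to 46.2% U, 86.3 to 229 per kb and 46 to 61 clusters. The settings that drop sites or a replicate hold fewer cDNAs by construction. Alternatives chosen after seeing the data were counts at nucleotides called in either replicate, where 23.4% came from replicate 2, and a 3'UTR ending at the last site or at the RefSeq end, with 723 and 447 cDNAs per kb. At sites called in both replicates the replicate 2 share of Pdia4 (30.4%) was below that of all genes (34.9%), on the other side from the value in the report, and the cause was not tested. Replicate 2 holds few cDNAs in Atf4 and in coding sequence, so values there rest mainly on replicate 1.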
